A study of Mus musculus with 15 samples.

Results

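The 9 genes described here were grouped as markers of ocular surface epithelia. Krt12, Pax6, Aldh3a1 and Slurp1 were taken for the cornea, and Krt4 and Krt13 for stratified mucosa such as the conjunctiva. Krt19, Krt7 and Krt8 were taken for simple and glandular epithelium. The grouping does not mean that a gene is limited to that epithelium, and which cells its transcripts came from was not tested. The 9 genes were chosen by name as epithelial markers, although with earlier results of these data known. Of 55487 genes listed, each of the 9 symbols matched a single gene, and all 9 were among the 19006 genes with enough counts to be tested. They were read in bulk RNA-Seq of conjunctiva from 3 groups of wild-type female adult BALB/c mice (spelled BALC/c in the labels), with 5 libraries in each. All 15 libraries came from mice whose skin had been sensitized with MC903 (calcipotriol, a vitamin D analog that inflames skin) and OVA (ovalbumin, the antigen), so no group was unsensitized. Eyes were then challenged with PBS and no antibody (PBS group), with OVA and isotype control antibody (isotype group), or with OVA and anti–IL-4Rα, which blocks the receptor chain shared by IL-4 and IL-13 (anti–IL-4Rα group). Antibody and challenge both differ between the anti–IL-4Rα and PBS groups, and between the isotype and PBS groups, so their shares of those differences cannot be told apart.

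Keratins form the intermediate filaments of epithelial cells as pairs of a type I and a type II protein, and the pair in use changes with the epithelium and its stage. Krt12 is the type I keratin of differentiated corneal epithelium, whereas Krt4 (type II) and Krt13 (type I) form the pair of the upper layers of nonkeratinized stratified mucosa, and Krt8, Krt7 (type II) and Krt19 (type I) belong to simple, ductal and goblet-bearing epithelium. Pax6 is the transcription factor that specifies the eye and keeps corneal cells corneal, Aldh3a1 is an aldehyde dehydrogenase so abundant in the cornea that it is counted among its crystallins, and Slurp1 is a secreted Ly6-type protein of the corneal surface.

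Krt12 and Krt13 are both type I keratin genes of the cluster on chromosome 11 of GRCm38, with a gap of 695 kb between them, yet their levels in this tissue lay far apart, as given further on. Their 250 bases upstream of the RefSeq start (GRCm38.p6, minus strand, 5′ to 3′) are shown because these type I keratins mark cornea and mucosa and differed most in level. Capitals mark TATAAA and CACCC on either strand (GGGTG is CACCC read on the other strand), CACCC being the core of sites that KLF transcription factors bind.
Krt12, chr11:99422260-99422509: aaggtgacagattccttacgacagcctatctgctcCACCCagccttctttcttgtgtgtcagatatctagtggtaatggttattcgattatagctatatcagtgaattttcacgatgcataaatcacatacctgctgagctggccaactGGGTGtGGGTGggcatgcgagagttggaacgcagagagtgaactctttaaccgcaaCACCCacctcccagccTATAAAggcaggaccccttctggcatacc
Krt13, chr11:100121567-100121816: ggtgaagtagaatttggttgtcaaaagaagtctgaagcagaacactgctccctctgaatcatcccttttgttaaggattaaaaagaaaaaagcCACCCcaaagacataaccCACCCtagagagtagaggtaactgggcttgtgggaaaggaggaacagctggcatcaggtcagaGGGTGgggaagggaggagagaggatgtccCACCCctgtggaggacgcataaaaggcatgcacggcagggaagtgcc
The Krt12 window held 1 TATAAA, 29 bases before the start, and 4 CACCC, and the Krt13 window held 4 CACCC and 0 TATAAA. Over 32851 RefSeq promoters, 12.4% held TATAAA and 52.0% held CACCC in windows of the same length. Krt13 has 2 RefSeq starts, and the upstream one is shown. Promoter entries were matched for 5 of the 9 genes (Krt12, Pax6, Krt13, Krt7 and Krt8).

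Library totals ran from 48622245 to 67453932 counts in the PBS group, from 48657048 to 87745023 in the isotype group and, with anti–IL-4Rα, between 50432495 and 71637073. The 6 general epithelial genes (Epcam, Cdh1, Esrp1, Grhl2, Cldn7 and St14) summed to 1103 to 1312 CPM (counts per 1000000 counts of a library) over the 15 libraries, and 0 of the 6 was called in any of the 3 comparisons. Other tissue was present in unequal amounts. The summed CPM of 8 lacrimal gland genes ran from 146 to 51370 in the PBS group, from 194 to 32639 in the isotype group and, with anti–IL-4Rα, between 1287 and 152470, where libraries 1, 2, 4 and 5 were above every library of the other groups. The 6 hair follicle genes summed to 10105 in isotype library 2 and to 577 to 1847 in the other 14 libraries. The 6 meibomian gland genes summed to 3258 to 6229 in the PBS group and to 4299 to 5208 with anti–IL-4Rα. In the isotype group their sums ran from 2739, in library 2, to 6144.5. The 4 genes of corneal stroma and endothelium (Kera, Angptl7, Slc4a11 and Col8a2) summed to 47.9 to 75.9 CPM, with keratocan (Kera), which defines corneal stroma, at 7.79 to 15.7 CPM, and lens and retina genes at a summed 1.83 to 2.82 CPM. In bulk tissue, fewer cells of a type and less RNA per cell cannot be told apart.

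Per length of transcript, the mucosal keratins and Aldh3a1 were the most abundant of the 9 genes and Krt12 the least. In the PBS group, Krt13 stood at 579 ± 121 CPM per kb (SD, n = 5), Aldh3a1 at 561 ± 62.1, Krt4 at 461 ± 98.7 and Krt19 at 245 ± 43.2. The ranges of Krt13 and Aldh3a1, and of Aldh3a1 and Krt4, overlapped, although Aldh3a1 exceeded Krt4 in 5 of 5 libraries. Below them, Krt8 at 85.2 ± 7.81 and Krt7 at 78.2 ± 15.4 CPM per kb overlapped as well. Pax6 followed at 35.4 ± 3.68, Slurp1 at 9.55 ± 1.63 and Krt12 at 2.40 ± 2.67 CPM per kb, with no overlap at any of these steps. Among 16220 genes ranked by level per length in the PBS group, Krt13 ranked 107, Aldh3a1 114 and Krt4 141, whereas Pax6 ranked 2103 and Krt12 11354.

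The order changed little between the groups, as the plot of levels per length shows. In the isotype group Aldh3a1, at 349 ± 85.4 CPM per kb, stood below Krt4 at 399 ± 63.1, although with overlapping ranges and with Krt4 higher in 3 of 5 libraries. In the anti–IL-4Rα group Krt8, at 120 ± 15.7 CPM per kb, stood above Krt7, at 63.4 ± 13.5, without overlap. There Krt12 and Slurp1 had nearly equal means, 6.66 ± 10.6 and 6.66 ± 2.09, with Krt12 higher in 1 of 5 libraries. The keratin of cornea and the keratin of mucosa were far apart throughout. Per length, the median ratio of Krt13 to Krt12 was 608 in the PBS group (range 91.5 to 881), 1032 in the isotype group (795 to 1478) and 199 in the anti–IL-4Rα group (18.6 to 618).

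**Figure D1:**
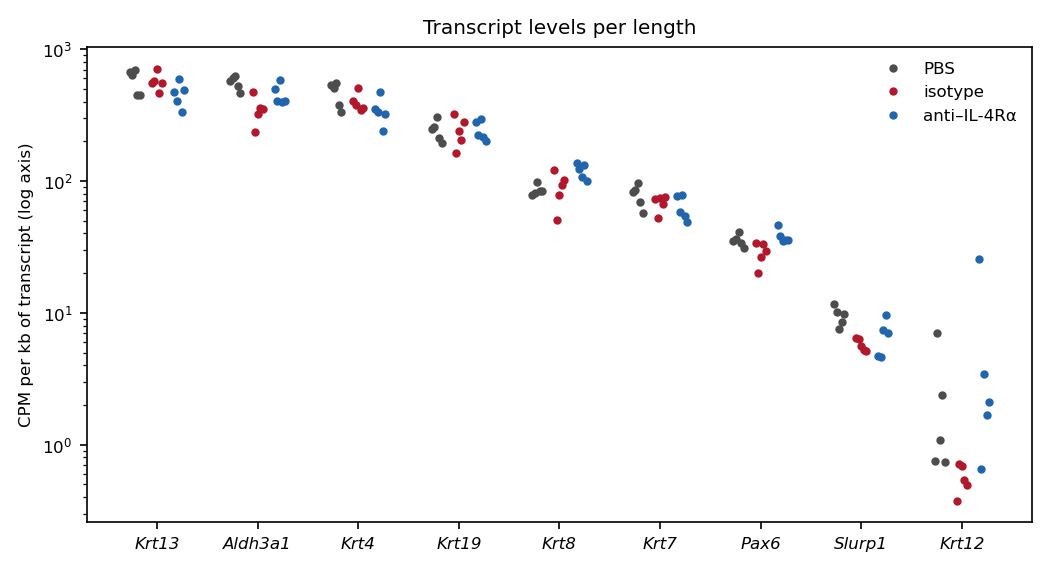
Level of each gene in each library, in CPM per kb of its principal transcript on a log axis, with genes ordered by their median over the 15 libraries and colors for the 3 groups. Krt13, Aldh3a1 and Krt4 lay at the top and Krt12 at the bottom, and Krt12 spread from 0.375 to 25.5 CPM per kb.

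OVA challenge with isotype control was compared with PBS challenge to ask how the identity genes stood in inflamed conjunctiva. Both genes that passed the test, Aldh3a1 and Slurp1, were chosen as corneal markers, and both fell. Whether their transcripts came from corneal cells in this tissue was not tested. In the PBS group Aldh3a1 ranked 114 and Slurp1 6462 by level per length, whereas the corneal keratin Krt12 ranked 11354. None of the 5 mucosal and simple keratins passed the test, and the corneal genes and the keratins were not tested against each other. The 2 of 9 called, 0 higher and 2 lower, stand beside 17.0% of all genes tested that were called in this comparison (9.53% higher and 7.49% lower). With 9 genes, a count of 2 is near that share and does not set them apart from all genes. The libraries of the 2 groups did not overlap for 2 of 9 genes, 0 higher and 2 lower (Krt12 and Slurp1), as for 12.3% of all genes tested (6.85% higher and 5.43% lower). The estimates of 8 of the 9 genes were below 0, with a median log2 fold change of -0.21 against -0.01 over all genes tested.

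Blockade of IL-4Rα was then compared with isotype control in OVA-challenged eyes. Krt12 and Pax6 were called higher, and none of the 5 mucosal and simple keratins was called. The 2 of 9, 2 higher and 0 lower, stand beside 14.9% of all genes called (6.73% higher and 8.13% lower). This count does not set the 9 genes apart from all genes either. The libraries did not overlap for 1 of 9 (Pax6, higher), as for 7.31% of all genes (2.35% higher and 4.96% lower). Both calls depended on single libraries, as given with each gene. Between the anti–IL-4Rα and PBS groups 0 of 9 genes were called by edgeR, where 3.72% of all genes were (2.28% higher and 1.44% lower), and the libraries did not overlap for 1 of 9 (Krt8, higher), as for 6.10% of all genes (2.98% higher and 3.12% lower). In that comparison 3 of 9 had an unadjusted p under 0.05 (Slurp1, Krt4 and Krt8), DESeq2 called 1 (Krt8) and limma called 0. The comparisons share their groups, so their values are not independent of each other.

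**Figure D2:**
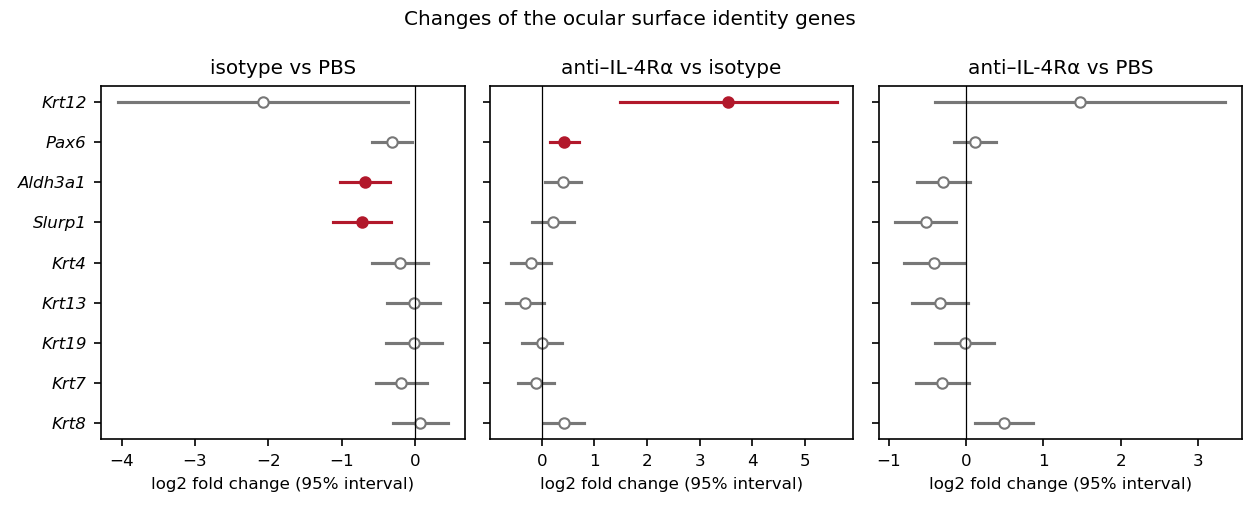
Log2 fold change of each gene in the 3 comparisons, with its 95% interval from the edgeR fit (each panel has its own axis range). Filled red points were called at an adjusted p under 0.05: Aldh3a1 and Slurp1 lower in the isotype group than in the PBS group, and Krt12 and Pax6 higher with anti–IL-4Rα than with isotype control.

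Aldh3a1 (chr11:61207537-61218421, plus strand) was called lower after OVA challenge in every fit that was run. It stood at 1001, 1044, 1078, 917 and 811 CPM in PBS libraries 1 to 5, at 819, 407, 562, 619 and 608 CPM in the isotype libraries and at 857, 702, 1013, 691 and 699 CPM in the anti–IL-4Rα libraries. Only isotype library 1 reached into the PBS range, just above the lowest PBS library, and the anti–IL-4Rα libraries lay across both ranges. Aldh3a1 fell by 0.69 on the log2 scale (SE 0.16, 0.62 times the PBS level) in the isotype group, with an adjusted p of 0.0132. The call held when each of the 15 libraries was left out in turn and under each of the 10 other settings tried. Isotype library 2, lowest in Aldh3a1, was also the library with high hair follicle genes; without it the difference was -0.57. The anti–IL-4Rα group stood at 1.31 times the isotype level (log2 0.39, SE 0.16, adjusted p = 0.108) and at 0.82 times the PBS level (log2 -0.29, SE 0.16, adjusted p = 0.294), and neither difference passed. The former was called when isotype library 1 was left out (log2 0.53, adjusted p = 0.0257). Set against the mucosal keratin Krt13 per length, Aldh3a1 made a median of 94.1% of it in the PBS group (range 86.8 to 119), 63.7% in the isotype group (41.2 to 85.5) and 101% in the anti–IL-4Rα group (82.1 to 119). In these ratios within a library the isotype range lay below both others except where its top, 85.5%, passed the lowest anti–IL-4Rα library.

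Slurp1 (chr15:74724318-74728034, minus strand) was the other gene that fell. Its PBS libraries stood at 33.6, 29.1, 21.5, 24.3 and 28.1 CPM, its isotype libraries at 18.5, 18.3, 16.0, 14.9 and 14.6 CPM and its anti–IL-4Rα libraries at 13.4, 13.2, 21.1, 27.5 and 19.98 CPM. Every isotype library was below every PBS library, which held for 5.43% of all genes tested, and the anti–IL-4Rα libraries ran from below the isotype range into the PBS range. Slurp1 fell by 0.73 on the log2 scale (SE 0.18, 0.60 times the PBS level) with an adjusted p of 0.0174, called without each library in turn and under 9 of 10 other settings. In the anti–IL-4Rα group it was 1.16 times the isotype level (log2 0.21, SE 0.18, adjusted p = 0.441) and 0.70 times the PBS level (log2 -0.52, SE 0.18, adjusted p = 0.110). The exons of Slurp1 overlap those of Them6 on the opposite strand by 322 bp, and how the counting used strand is not stated. Them6 had 155 to 401 counts a library, at most 37.4% of those of Slurp1.

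Pax6 (chr2:105668900-105697364, plus strand), the transcription factor, stood at 101, 103, 118, 97.0 and 89.4 CPM in the PBS libraries, at 97.1, 58.0, 75.6, 94.8 and 83.8 CPM in the isotype libraries and at 134, 111, 101, 103 and 103 CPM in the anti–IL-4Rα libraries. All 5 anti–IL-4Rα libraries were above all 5 isotype libraries, which held for 2.35% of all genes tested, with 101 CPM in the lowest of them and 97.1 CPM in the highest isotype library. Pax6 rose in the anti–IL-4Rα group to 1.35 times the isotype level (log2 0.43, SE 0.13, adjusted p = 0.0390). It was called in 6 of the 15 fits without a single library and under 3 of 10 other settings. Leaving out PBS library 2 or 4, isotype library 2, 3 or 5, or anti–IL-4Rα library 1, 2, 4 or 5 ended the call, with log2 fold changes of 0.33 to 0.50 and adjusted p values of 0.0198 to 0.0970 over the 15 fits. With the lacrimal score as a covariate the log2 fold change was 0.37 (adjusted p = 0.123). Whether the Pax6 transcripts came from corneal cells in this tissue was not tested. The isotype group stood at 0.80 times the PBS level (log2 -0.31, SE 0.13, adjusted p = 0.102), called without isotype library 1 (log2 -0.38, adjusted p = 0.0486), and the anti–IL-4Rα group at 1.08 times it (log2 0.12, SE 0.13, adjusted p = 0.632).

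Krt12 (chr11:99415666-99422259, minus strand) was low and uneven. The PBS libraries stood at 1.40, 12.98, 2.0, 4.43 and 1.37 CPM, the isotype libraries at 0.695, 1.33, 1.28, 0.996 and 0.921 CPM, and the anti–IL-4Rα libraries at 47.2, 1.21, 6.35, 3.11 and 3.87 CPM. Anti–IL-4Rα library 1 and PBS library 2 stood far above the rest of their groups, and every isotype library was below every PBS library, with 1.33 CPM in the highest isotype library and 1.37 CPM in the lowest PBS library. The largest value was 39.1 times the smallest within the anti–IL-4Rα group, 9.47 times within the PBS group and 1.92 times within the isotype group.

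Against the isotype group, Krt12 rose in the anti–IL-4Rα group to 11.7 times its level (log2 3.55, SE 0.96, adjusted p = 0.0293), with 4 of 5 libraries above the highest isotype library. Without anti–IL-4Rα library 1 the log2 fold change was 1.79 (adjusted p = 0.101). Leaving out isotype library 2, 3 or 5 also ended the call, with adjusted p values of 0.0637, 0.0693 and 0.0620, and log2 fold changes of 3.50 to 3.65. On log2(FPKM + 1) limma gave 1.49 (adjusted p = 0.117). The isotype group stood at 0.24 times the PBS level (log2 -2.07, SE 0.92, adjusted p = 0.136; log2 -1.12 without PBS library 2), and the anti–IL-4Rα group at 2.78 times it (log2 1.48, SE 0.88, adjusted p = 0.333), which turned to a log2 of -0.28 without anti–IL-4Rα library 1. The limma fit, the covariate fits and the fits to the compared groups alone thus did not keep the Krt12 call, whereas upper quartile factors, DESeq2 and no filter did.

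Krt12 shares sequence with a gene on the opposite strand. Its exons overlap those of A830036E02Rik by 1007 bp, and 31.7% of its 90-base stretches occur in that gene when strand is ignored. A830036E02Rik had 63 to 148 counts in the isotype libraries, where Krt12 had 34 to 130 and did not exceed it in any library. In the PBS libraries Krt12 had 78 to 765 counts and exceeded it in 3 of 5, and in the anti–IL-4Rα libraries 80 to 2214 counts and 4 of 5. The lowest Krt12 values therefore cannot be told from antisense reads if strand was not used. The corneal stroma and endothelium genes did not all go the same way in the libraries with the high Krt12 values. In anti–IL-4Rα library 1 they summed to 52.6 CPM, within the 51.8 to 75.9 CPM of its group, with Kera the highest (15.7 CPM) and Angptl7 the lowest (4.60 CPM) of all 15 libraries and Col8a2 the lowest of its group (10.7 CPM). In PBS library 2 they summed to 63.5 CPM, the highest of the 50.3 to 63.5 CPM of its group, with Angptl7 (14.9 CPM) and Col8a2 (18.9 CPM) the highest of that group and Kera (10.98 CPM) and Slc4a11 (18.7 CPM) within its range. Over the 15 libraries the r of Krt12 with the score of this list was -0.24 (permutation p = 0.445, adjusted p = 0.728), with rho -0.32 (permutation p = 0.267, adjusted p = 0.561) and r = -0.32 without those 2 libraries. Anti–IL-4Rα library 1 had a lacrimal sum of 117270 CPM, below those of anti–IL-4Rα libraries 4 and 5, in which Krt12 stood at 3.11 and 3.87 CPM. These sums and correlations do not measure the part of other tissue in the Krt12 values, which was not tested.

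**Figure D3:**
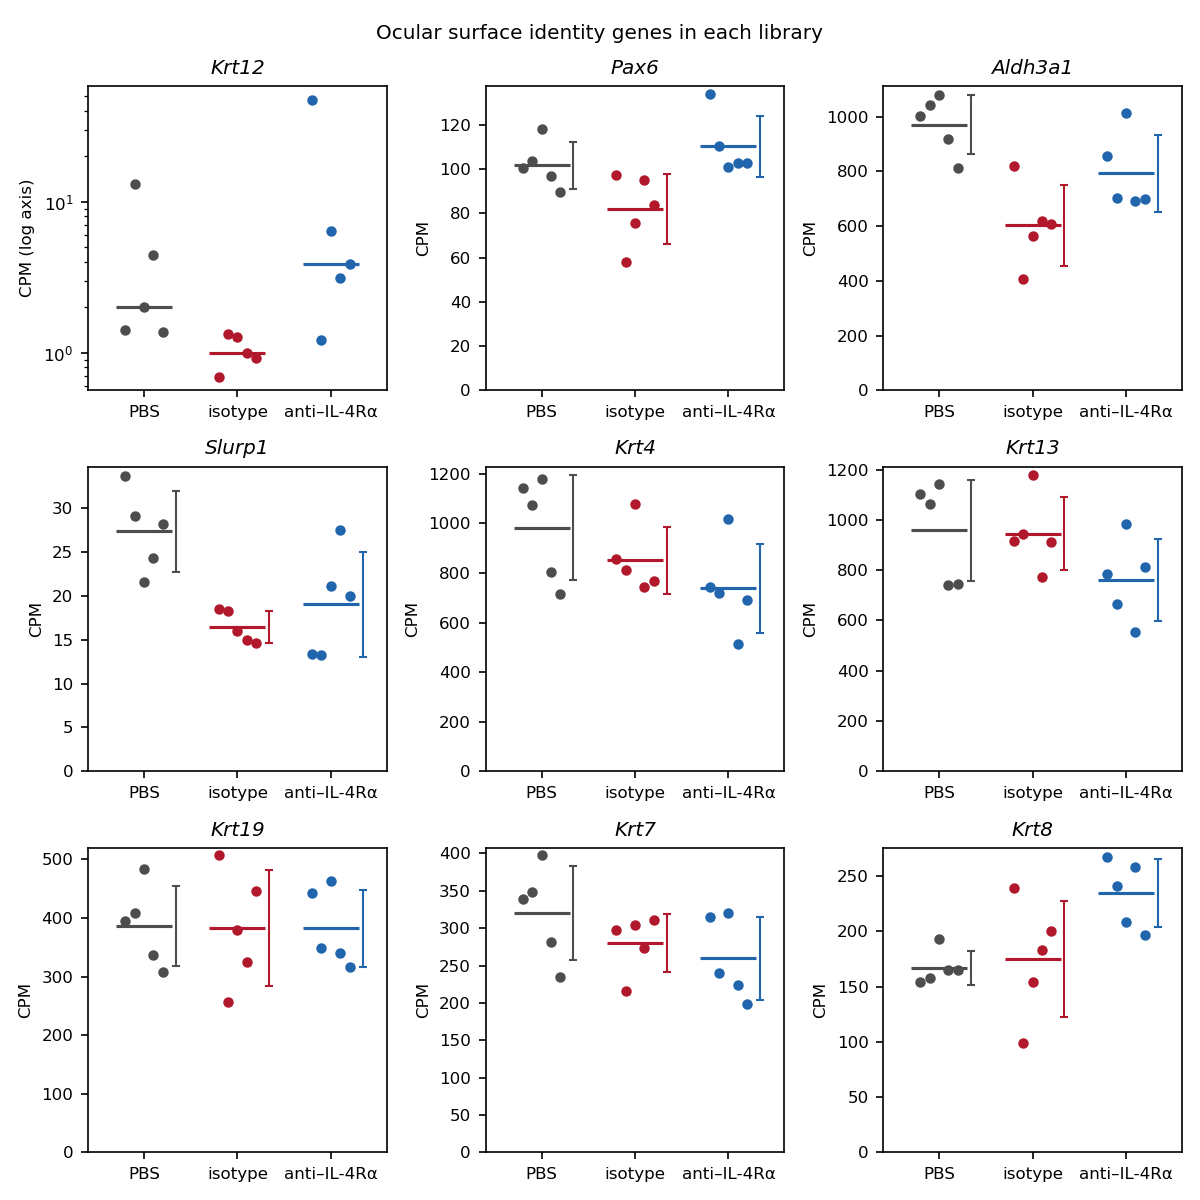
CPM of each of the 9 genes in each library, with points for libraries 1 to 5 from left to right in each group. Horizontal lines are group means with the SD as a bar beside them, except for Krt12, whose axis is a log axis and whose line is the median. The isotype points of Slurp1 and Krt12 lie below all PBS points, and the anti–IL-4Rα points of Pax6 above all isotype points.

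**Figure D4:**
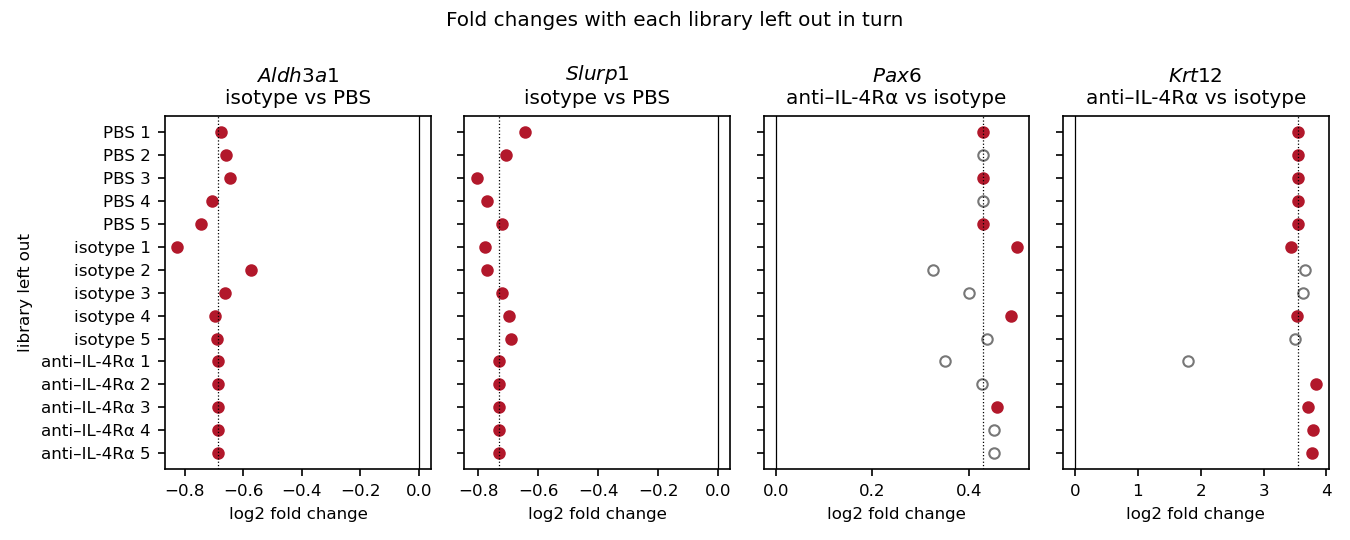
Log2 fold change of the 4 called results when each of the 15 libraries was left out in turn (y axis, library left out). Filled red points kept an adjusted p under 0.05 and open points did not, and the dotted line marks the value with all libraries. Aldh3a1 and Slurp1 kept the call in 15 of 15 fits, Pax6 in 6 and Krt12 in 11, and Krt12 moved to 1.79 without anti–IL-4Rα library 1.

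The mucosal keratin pair, Krt4 (chr15:101918535-101924735, minus strand) and Krt13 (chr11:100117327-100121566, minus strand), was not called in any of the 3 comparisons. Krt4 stood at 1142, 1076, 1179, 803 and 714 CPM in the PBS libraries, at 857, 811, 1080, 744 and 766 CPM in the isotype libraries and at 745, 718, 1019, 516 and 690 CPM in the anti–IL-4Rα libraries. Krt13 stood at 1103, 1061, 1142, 740 and 744 CPM in the PBS libraries, at 917, 945, 1179, 775 and 913 CPM in the isotype libraries and at 785, 666, 983, 554 and 814 CPM in the anti–IL-4Rα libraries. All groups overlapped for both genes, PBS libraries 1 to 3 were high and 4 and 5 low for both, and library 3 was the highest of each group for both. The isotype group stood at 0.87 times the PBS level for Krt4 (log2 -0.21, 95% interval -0.59 to 0.18, adjusted p = 0.456) and at 0.99 times for Krt13 (log2 -0.02, -0.38 to 0.34, adjusted p = 0.956). Against the PBS group, the anti–IL-4Rα group stood at 0.75 times for Krt4 (log2 -0.41, -0.80 to -0.03, adjusted p = 0.184) and at 0.79 times for Krt13 (log2 -0.33, -0.70 to 0.03, adjusted p = 0.254). A fall of 0.69, the estimate for Aldh3a1, lay outside the isotype intervals of both keratins and inside their anti–IL-4Rα intervals. The 95% interval of Aldh3a1 itself, -1.03 to -0.34, overlapped the isotype intervals of both keratins. The difference between Aldh3a1 and the keratins was not tested. Anti–IL-4Rα against isotype gave log2 -0.21 for Krt4 (adjusted p = 0.435) and -0.31 for Krt13 (adjusted p = 0.209).

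Of the simple keratins, Krt19 (chr11:100140810-100148665, minus strand), whose gene lies 19.2 kb from Krt13, showed the smallest differences. It stood at 394, 408, 484, 337 and 308 CPM in the PBS libraries, at 507, 256, 380, 324 and 446 CPM in the isotype libraries and at 442, 349, 464, 339 and 316 CPM in the anti–IL-4Rα libraries. The highest and the lowest of the 15 libraries, isotype 1 and isotype 2, were of the same group. Its log2 fold changes were -0.01 (95% interval -0.39 to 0.37), 0.00 (-0.38 to 0.38) and -0.02 (-0.40 to 0.36) in the 3 comparisons, isotype against PBS, anti–IL-4Rα against isotype and anti–IL-4Rα against PBS, and their signs changed with the settings.

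Krt7 (chr15:101411043-101430313, plus strand) stood at 339, 349, 397, 282 and 235 CPM in the PBS libraries, at 297, 216, 305, 274 and 312 CPM in the isotype libraries and at 315, 240, 320, 224 and 199 CPM in the anti–IL-4Rα libraries. The groups overlapped, with isotype library 2 again the lowest of its group. The log2 fold changes were -0.19 for isotype against PBS (adjusted p = 0.442), -0.11 for anti–IL-4Rα against isotype (adjusted p = 0.650) and -0.30 for anti–IL-4Rα against PBS (adjusted p = 0.276).

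Krt8 (chr15:101996698-102004482, minus strand), the type II keratin of simple epithelium and glands, stood at 154, 158, 193, 165 and 165 CPM in the PBS libraries, at 239, 99.1, 154, 183 and 201 CPM in the isotype libraries and at 267, 241, 208, 258 and 197 CPM in the anti–IL-4Rα libraries. All 5 anti–IL-4Rα libraries were above all 5 PBS libraries, which held for 2.98% of all genes tested, whereas the isotype libraries spread across both ranges. The anti–IL-4Rα group stood at 1.40 times the PBS level (log2 0.49, SE 0.18, adjusted p = 0.118) and at 1.34 times the isotype level (log2 0.42, SE 0.18, adjusted p = 0.116), and neither difference passed. The first was called by DESeq2 (adjusted p = 0.0488), in the fit to the compared groups alone (adjusted p = 0.0352) and without isotype library 2 (adjusted p = 0.0344), and the other without isotype library 1 (adjusted p = 0.0322). With the lacrimal score as a covariate, Krt8 stood at log2 0.26 against PBS (adjusted p = 0.531). Its type I partner Krt18 rose in the anti–IL-4Rα group to 2.23 times the isotype level (log2 1.16, SE 0.32, adjusted p = 0.0313). Krt18 was lowest there in library 3, at 67.2 CPM against 129 to 190 in the other 4, and library 3 was also the anti–IL-4Rα library with the low lacrimal sum, 1287 CPM. Per length, the median of Krt8 over Krt18 was 2.26 in the PBS group, 2.04 in the isotype group and 1.19 in the anti–IL-4Rα group. For Krt8, 19.6% of its 90-base stretches also occur in Gm36026 or the pseudogene Krt8-ps, and the mapping kept unique pairs.

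Within the keratin transcripts of the tissue the 6 keratins described here were a minor part. Of the summed CPM per kb of 52 keratin genes, Krt4 and Krt13 together made a median of 6.07% in the PBS group, 5.00% in the isotype group and 6.06% in the anti–IL-4Rα group. Krt7, Krt8 and Krt19 made 2.28%, 2.21% and 2.75%, and Krt12 made 0.00656%, 0.00313% and 0.0135%. The basal keratins Krt5, Krt14 and Krt15 made 35.98%, 36.8% and 36.1%, and the epidermal keratins Krt1, Krt10, Krt2 and Krt77 made 35.0%, 28.1% and 31.2%. These 4 thus made up more of the pool than the mucosal pair, and whether they came from skin or from the ocular surface epithelium was not tested. The stress keratins Krt6a, Krt6b, Krt16 and Krt17 made 10.8%, 15.9% and 11.7%, and their lowest isotype library, 15.03%, was above the highest of the other groups, 13.6%.

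Several of the 9 genes varied together across libraries. Pearson's r was computed on log2 CPM centered on the group means over the 15 libraries for all 36 pairs, with p values from 100000 permutations within groups adjusted over the 36, and 7 pairs passed, all with positive r. Krt4 and Krt13, on different chromosomes, had r = 0.94 (permutation p = 0.00016, adjusted p = 0.00192), Spearman's rho 0.94 (permutation p = 0.0003, adjusted p = 0.0036) and r = 0.92 without the 2 libraries farthest from the median of Krt4. Krt19 and Krt7 had r = 0.88 (permutation p = 2e-05, adjusted p = 0.00072), rho 0.86 (permutation p = 0.00015, adjusted p = 0.0036) and r = 0.94 without 2 libraries. Aldh3a1, chosen as a corneal marker, passed with the simple keratins Krt19 and Krt7 and not with Krt12 (r = 0.20). It had r = 0.90 with Krt19 (permutation p = 9e-05, adjusted p = 0.00162), rho 0.87 (permutation p = 0.00023, adjusted p = 0.0036) and r = 0.82 without isotype libraries 1 and 2. With Krt7 it had r = 0.79 (permutation p = 0.00059, adjusted p = 0.00531), rho 0.83 (permutation p = 0.00115, adjusted p = 0.0103) and r = 0.88 without those libraries.

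Pax6 and Krt8 had r = 0.85 (permutation p = 0.0013, adjusted p = 0.00936), rho 0.75 (permutation p = 0.00528, adjusted p = 0.038) and r = 0.73 without isotype library 2 and anti–IL-4Rα library 1. The weakest of the 7 were Krt4 with Krt7 (r = 0.71, permutation p = 0.00948, adjusted p = 0.0488; rho 0.73, permutation p = 0.00798, adjusted p = 0.0479; r = 0.67 without 2 libraries) and Pax6 with Krt7 (r = 0.63, permutation p = 0.00857, adjusted p = 0.0488; rho 0.56, permutation p = 0.0338, adjusted p = 0.101; r = 0.46 without 2 libraries), and the last did not hold by rank. Isotype library 2 was the lowest of the isotype libraries in Pax6, Aldh3a1, Krt19, Krt7 and Krt8 and held the high hair follicle sum, and it is among the 2 libraries left out for the pairs of Pax6, Aldh3a1 and Krt19 above. Krt12 and Slurp1 were in none of the 7 pairs. The r of Krt12 with the other 8 genes ran from -0.19 to 0.38, and that of Slurp1 from -0.45 to -0.04. The 9 genes were also correlated with 6 marker scores (lacrimal, hair follicle, corneal stroma, general epithelial, goblet and meibomian). Each score is the mean log2 CPM of the genes in its list, not their summed CPM. Of these 54 correlations, 0 passed after adjustment and 10 had an unadjusted permutation p under 0.05. The smallest p values were those of Pax6 and Krt8 with the meibomian score. Pax6 had r = 0.80 (permutation p = 0.002, adjusted p = 0.0764; r = 0.77 without 2 libraries). Krt8 had r = 0.79 (permutation p = 0.00283, adjusted p = 0.0764; r = 0.50 without 2 libraries). The part of gland tissue in the Pax6 and Krt8 pair was not tested.

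**Figure D5:**
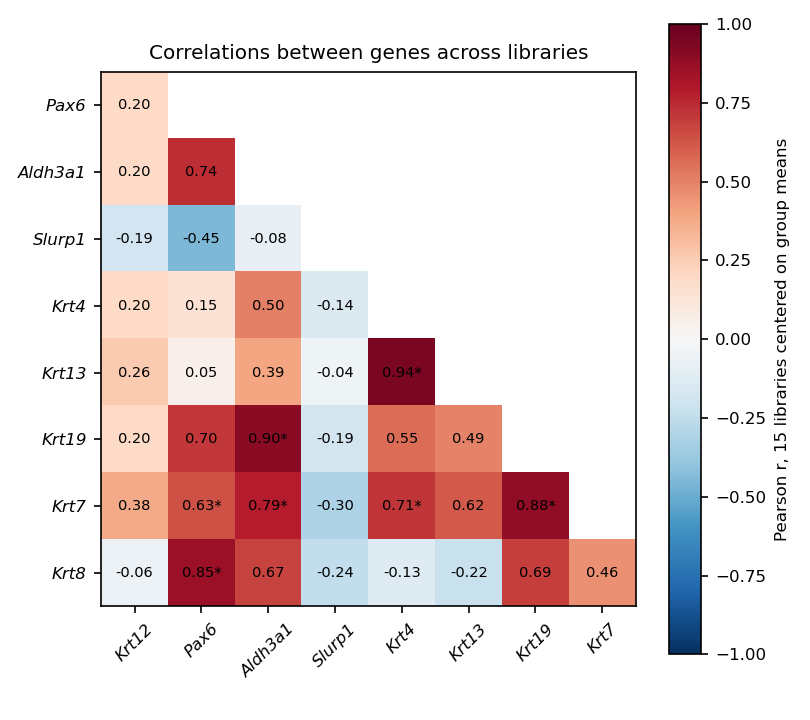
Pearson's r between each pair of the 9 genes over the 15 libraries, on log2 CPM centered on the group means (color scale from -1 to 1). Asterisks mark the 7 pairs with an adjusted permutation p under 0.05, among them Krt4 with Krt13 at 0.94 and Aldh3a1 with Krt19 at 0.90, and the columns of Krt12 and Slurp1 hold none.

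Over 15490 other genes with a mean of at least 1 CPM, the ones most like each of the 9 across the 15 libraries are given as a description, since the points share their libraries and depth. For Aldh3a1 they were Adh7 (r = 0.98), Gsta4 (0.96), Pir (0.96), Alox12 (0.96) and Calml3 (0.96). Krt19 shared Gsta4 (0.96) and Pir (0.95) with it, beside Capn13, Slc39a4 and 2700033N17Rik (each 0.96). Krt4 was most like Sox15 (0.91), and Krt13 most like Lce3f (0.91), and both had Atp10b, Lce3e and Rnf152 among their 5. The genes most like Pax6 were Sorbs2 (0.96), Ascl3 (0.94), Sult3a2 (0.94), Dact2 (0.93) and Fuom (0.93), and for Krt12 they were Rbfox2 and Lypd2 (each 0.89), Letmd1 (0.78), Vezf1 (0.76) and Gnal (0.76). The Krt12 values can rest on its outlying libraries, anti–IL-4Rα library 1 and PBS library 2, and r without them is not given. Lypd2 and Gnal had means of only 1.30 and 1.10 CPM. Krt7 was most like Pde7a (0.97), Krt8 most like Tst (0.98) and Slurp1 most like Ano7 (0.93).

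Other genes of the same epithelia were read from lists chosen by name. Of 6 further genes chosen as corneal, Aldh1a1, another aldehyde dehydrogenase, fell in the isotype group to 0.63 times the PBS level (log2 -0.67, adjusted p = 0.0150). It stood at 18.5 to 53.4 CPM over the 15 libraries, where Aldh3a1 stood at 407 to 1078 CPM. Whether the Aldh1a1 transcripts came from corneal cells was not tested. The gap junction gene Gjb6 rose in the isotype group (log2 0.79, adjusted p = 0.00414) and fell in the anti–IL-4Rα group relative to isotype (log2 -0.77, adjusted p = 0.00762). Tkt, Clu, Upk1b and Wnt7a were not called in any comparison. Of 8 transcription factors of the ocular surface, Foxc1 fell in the isotype group (log2 -0.30, adjusted p = 0.0207), Otx1 rose (log2 0.48, adjusted p = 0.0197) and Grhl3 fell (log2 -0.54, adjusted p = 0.0119) in the anti–IL-4Rα group relative to isotype, and Grhl3 also fell relative to PBS (log2 -0.43, adjusted p = 0.0497). Klf4, Klf5, Elf3, Ehf and Sox9 were not called in any comparison. Of 6 basal and limbal genes, Krt14 rose in the isotype group (log2 0.55, adjusted p = 0.00694) and fell in the anti–IL-4Rα group relative to isotype (log2 -0.75, adjusted p = 0.00243), where Trp63 fell too (log2 -0.25, adjusted p = 0.0329).

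Among the conjunctiva's own secretory genes, 1 of 8 goblet cell genes was called in the isotype group, Spdef, the transcription factor of goblet cell differentiation, which rose (log2 0.87, adjusted p = 0.00366). Spdef was also higher with anti–IL-4Rα than with PBS (log2 1.14, adjusted p = 0.00569), and Fcgbp fell there relative to both isotype (log2 -0.79, adjusted p = 0.00545) and PBS (log2 -0.71, adjusted p = 0.0231). The 4 membrane mucin genes Muc1, Muc4, Muc16 and Muc20 and the 6 epidermal genes had 0 calls in any comparison. All 4 stress keratins rose in the isotype group and fell in the anti–IL-4Rα group relative to isotype, with medians of 0.69 and -0.82 on the log2 scale. Of 4 genes of corneal stroma and endothelium, Col8a2 fell in the isotype group (log2 -0.63, adjusted p = 0.00502). All 6 skeletal muscle genes fell in the isotype group as well (median log2 -0.72), and the part of that tissue in the values of Aldh3a1 and Slurp1 was not tested. Of 6 leukocyte genes, Ptprc (log2 1.05, adjusted p = 0.00657) and Siglecf (log2 1.51, adjusted p = 0.0178) rose in the isotype group, and Lyz2 rose with anti–IL-4Rα relative to PBS (log2 0.72, adjusted p = 0.0318). Of 8 lacrimal genes, Aqp5 rose with anti–IL-4Rα relative to isotype (log2 0.48, adjusted p = 0.0444) and PBS (log2 0.61, adjusted p = 0.0398), and the other 7 were not called. The 6 meibomian and 6 hair follicle genes had 0 calls. Of the 7 lens and retina genes 4 were tested, and Cryaa rose in the isotype group (log2 2.28, adjusted p = 0.00475) and fell with anti–IL-4Rα relative to isotype (log2 -1.56, adjusted p = 0.0265). Cryaa was near the floor in every group. It stood at 0.057 to 0.18 CPM in the PBS libraries, 0.25 to 0.88 CPM in the isotype libraries and 0.074 to 0.40 CPM with anti–IL-4Rα.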

How the data were processed

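Groups came from the sample labels. The authors selected polyA RNA, sequenced stranded libraries as read pairs, and mapped unique pairs to the B38 mouse genome in Omicsoft Array Studio, with an Ensembl gene model; how counts were made and whether strand was used is not stated. The authors deposited estimated counts (expected counts) per gene, unscaled, unfiltered and partly fractional, and were rounded. Names, positions and lengths came from GENCODE M21 (GRCm38), which named 55227 of 55487 genes. Genes reaching 10 counts in 5 or more libraries were fitted in edgeR 4.0.16 (R 4.3.3; TMM factors, quasi-likelihood test, two-sided, a single model of 3 groups). P values were adjusted over 19006 genes (Benjamini-Hochberg), with calls at an adjusted p under 0.05. CPM are per 1000000 TMM-scaled counts, and log2 CPM adds a prior count of 2. Levels are compared between genes per kb of the principal transcript.

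All 9 genes are named, and so are up to 3 called genes of each marker list in each comparison and the 5 genes most like each of the 9. The genes, marker lists and alternatives were chosen with earlier results of these data known. The sample titles give each library a mouse number of its own. The labels do not otherwise say that libraries are separate animals, so p values measure the spread between libraries. No 2 libraries were identical, and over 30 pairs within groups their chi-square was at least 20.7 per degree of freedom. The methods mention outliers without naming them, and all 15 libraries were used. DESeq2 1.42.0 and limma 3.58.1 served as alternatives. On simulated data for isotype against PBS (19006 genes), edgeR recovered 165 of 200 changed genes with 7 false calls among 172, and 48 of 50 changed 4-fold, 87 of 100 changed 2-fold and 30 of 50 changed 1.5-fold. Each simulated gene varied independently of the others, and unequal tissue was not simulated. These rates therefore need not hold for the real libraries. Tables and plots used Python 3.11.15, pandas 2.3.3, scipy 1.17.1 and matplotlib 3.10.9.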

Additional observations from a re-analysis of the deposited data

Results flagged for a closer look

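In 27 sets of 5 libraries (9 genes in 3 groups), 3 single libraries stood apart from the rest of their group by Dixon's ratio of the gap to the range, which exceeds its critical value of 0.71 in about 1 of 20 sets by chance. Krt12 stood at 13 CPM in PBS library 2, where the next library had 4.43 CPM (ratio 0.736), and at 47.2 CPM in anti–IL-4Rα library 1, where the next had 6.35 CPM (ratio 0.888). Krt8 stood at 193 CPM in PBS library 3, where the next had 165 CPM (ratio 0.72).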

How the results depend on the processing

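Aldh3a1 was called lower in the isotype than in the PBS group in every fit run, and Slurp1 in every fit but the one with the replicate number as a block (adjusted p = 0.0513). Isotype against PBS called 2 genes of 9, and 2 to 3 without a single library. Anti–IL-4Rα against isotype called 2, and 0 to 4 without a single library. It called 1 with limma on log2(FPKM + 1), with no filter, or with a fold of at least 1.5 also required, and 0 in the fit to the compared groups alone, with the lacrimal, corneal stroma or general epithelial score as a covariate, and without isotype library 2 and anti–IL-4Rα library 1 together (chosen after seeing the data). Anti–IL-4Rα against PBS called 0, 1 with DESeq2 and 1 in the fit to the compared groups alone, and 0 to 1 without a single library. The correlations passing numbered 7, and 5 to 11 without a single library. The cause of these moves was not tested.

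With the replicate number as a block, 1, 0 and 0 genes of 9 and 2115, 1859 and 312 of all genes were called in the 3 comparisons, against 3235, 2826 and 707 without it. Between isotype and PBS libraries with the same number, correlations ran from -0.38 to 0.45, with 1 of 5 over 0.1. Between anti–IL-4Rα and PBS, 2 of 5 were over 0.1. With only 5 pairs in each comparison, these values cannot decide whether such libraries share more than a number.

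Over all genes, fits without a single library called 1863 to 3936, 882 to 4206 and 82 to 2029. Called genes that were higher made 56.0% for isotype against PBS, but 44.5% with upper quartile factors and 44.0% with limma; for anti–IL-4Rα against PBS 61.4%, 51.3% and 33.7%. Anti–IL-4Rα against isotype called 675 in the fit to the compared groups alone, 828, 930 and 293 with the lacrimal, stroma and general epithelial scores, 1749 with no filter and 448 without the 2 libraries. Anti–IL-4Rα against PBS called 1966 with DESeq2, 430 with limma, 327 with no filter, 93 and 154 with the lacrimal and epithelial scores and 211 without the 2 libraries.

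Signs turned in 36 fits, none of them called. For Krt19, isotype against PBS turned to 0.00012 (lacrimal), 0.0168 (stroma) and 0.10 (without the 2 libraries), anti–IL-4Rα against isotype to 0.0016 (upper quartile), 0.0125 (limma), 0.00025 (replicate block), 0.0116 (lacrimal) and 0.20 (epithelial), and anti–IL-4Rα against PBS to 0.0118 (lacrimal) and 0.11 (epithelial); without single libraries the 3 ran from -0.14 to 0.10, -0.12 to 0.12 and -0.10 to 0.077. For isotype against PBS, Krt13 turned to 0.073 (lacrimal; -0.11 to 0.052 without single libraries) and Krt8 to -0.0044 (limma) and -0.039 (lacrimal; -0.071 to 0.22 without single libraries). For anti–IL-4Rα against isotype, Krt4 turned to 0.00042 and Krt7 to 0.056 (epithelial). Krt12 for anti–IL-4Rα against PBS turned to -0.28 without the 2 libraries, and ran from -0.28 to 2.43 without single libraries. In the isotype libraries Krt12 had low counts, 34 to 130, yet varied least there. The SD of its CPM was 25.2% of the mean in the isotype group, 111% in the PBS group and 158% in the anti–IL-4Rα group.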
